A study of Mus musculus with 6 samples.

Results

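The p53 target genes were followed in mouse embryonic fibroblasts that lacked a working Ing1 locus. The list held 39 genes: p53 itself (Trp53), its 2 controllers Mdm2 and Mdm4, and 36 genes that p53 is known for switching on or that are listed with its response. A gene was read through array probes whose annotation gave its symbol and no other. Of the 39 genes, 35 had such a probe (42 probes), against 18069 genes named in the whole series, and 32 were measured well enough to be tested, against 11893 tested genes in all. Trp53, Bax, Fdxr and Ckap2 had no such probe and were not analysed here.

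p53 is a transcription factor that is kept scarce by the ubiquitin ligase Mdm2 and its relative Mdm4. Damage or stress frees it, and it then binds sites made of a pair of short half-sites and raises genes that stop the cell cycle, trigger cell death, aid DNA repair or adjust metabolism. Mdm2 is itself a target, which closes a feedback loop. Cultured embryonic fibroblasts are a classic setting for p53, because their growth arrest in culture depends on it. ING1 proteins read a histone mark, work with Sin3-HDAC complexes and have been described as partners of p53.

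In all 6 cultures entered the comparison, 3 Ing1-deficient and 3 wild type. The deficient cultures, which the labels call C4, C3 and B1, came from embryos with a gene-trap insertion that inactivates Ing1, and the cultures named H2, H3 and I2 came from wild-type littermates. Each was an early-passage preparation from 1 embryo, with no treatment named, and its total RNA was read on its own 1-colour CodeLink array. The leading letter is not explained, and no letter holds both genotypes, so letter and genotype cannot be told apart. Values are normalized intensities, on which the median probe of an array stands at 1, and a difference is the log2 value of deficient minus wild-type arrays with its standard error.

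Ing1, a PHD-finger histone reader, checked the labels. Its probe read 1.38, 0.930 and 1.39 on the deficient arrays C4, C3 and B1, against 11.7, 11.4 and 11.1 on the arrays of wild-type H2, H3 and I2. It fell 9.40-fold in deficient cells (log2 difference -3.23 ± 0.19, limma adjusted p = 0.000286). Good quality flags covered 55.5% to 62.1% of the 34967 transcript probes per array. All 17 probed fibroblast markers were tested, and their summed level was 1517 to 1645 on deficient arrays, against 1256 to 1640 on wild-type arrays, with 3 of them higher (Lum, Thy1 and Twist2). Of the macrophage markers 11 were tested, summing to 61.1 to 176 in deficient cells and 30.5 to 65.7 in wild-type cells. Of those 3 passed the test, all higher (C1qa, C1qb and Mrc1), while the defining marker Ptprc had no good spot on any array. Of 17 tested proliferation markers 4 were higher (Ccne1, Mcm3, Mcm5 and Rrm2) and none lower. Their sums were 340, 208 and 242 on C4, C3 and B1, against 210 to 221 in wild-type cells. Of the 6 tested epithelial markers 1 was lower (Dsp), with sums of 7.80 to 11.1 in deficient cells and 9.58 to 12.1 in wild-type cells, and none of 10 tested skeletal muscle markers passed (sums of 43.7 to 187 and 56.2 to 72.8). Of 10 endothelial markers with a probe, Pecam1, Cdh5, Cldn5 and Flt1 had no good spot on any array, while Esam, Kdr and Tek were tested and did not pass. Esam had a good spot on every array, at 1.83, 1.76 and 1.66 in deficient cells, against 1.58, 0.622 and 1.33 in wild-type cells, without overlap (log2 difference 0.68, limma adjusted p = 0.203). Over all tested genes 7.63% passed, 6.02% higher and 1.61% lower, beside 17.6% of the tested fibroblast, 27.3% of the macrophage, 23.5% of the proliferation and 16.7% of the epithelial markers. The part of these shifts in the p53 target values was not tested, and in bulk RNA fewer cells of a type and less RNA per cell cannot be told apart.

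The wild-type array H3 stood apart. Among the 32 tested p53 targets it gave the lowest of the 3 wild-type values in 20 (62.5%), against 46.7% of all tested genes. It was the wild-type array nearest to the deficient mean in 22 (68.8%), against 47.5% of all tested genes. Results are given with and without H3 where it decides a call. Since H3 was picked out by its values in these genes, wider differences without it follow in part from that choice and are no independent support.

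Promoter windows are shown for 3 members with lower values in deficient cells that are classic p53 targets (Cdkn1a, Ccng1 and Mdm2) and for the 2 members that passed the test (Tob1 and Tigar). Sequences are from RefSeq, assembly GRCm38.p6, from 250 bases before to 50 bases after an annotated start, written 5′ to 3′ on the gene's strand, with matches to the p53 half-site in capitals.
Cdkn1a, chr17:29090729-29091028, forward strand: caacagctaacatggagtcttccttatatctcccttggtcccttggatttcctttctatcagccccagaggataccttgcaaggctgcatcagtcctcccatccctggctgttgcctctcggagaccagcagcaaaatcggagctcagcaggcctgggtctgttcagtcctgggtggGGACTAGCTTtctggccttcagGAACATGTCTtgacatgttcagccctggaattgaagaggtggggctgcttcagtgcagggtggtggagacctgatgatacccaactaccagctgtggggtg
Ccng1, chr11:40755237-40755536, reverse strand: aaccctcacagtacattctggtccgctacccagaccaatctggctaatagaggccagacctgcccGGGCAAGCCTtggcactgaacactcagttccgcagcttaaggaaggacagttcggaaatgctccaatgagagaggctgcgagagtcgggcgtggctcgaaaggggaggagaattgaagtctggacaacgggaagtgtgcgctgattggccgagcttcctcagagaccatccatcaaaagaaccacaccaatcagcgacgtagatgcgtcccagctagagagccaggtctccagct
Mdm2, chr10:117710709-117711008, reverse strand: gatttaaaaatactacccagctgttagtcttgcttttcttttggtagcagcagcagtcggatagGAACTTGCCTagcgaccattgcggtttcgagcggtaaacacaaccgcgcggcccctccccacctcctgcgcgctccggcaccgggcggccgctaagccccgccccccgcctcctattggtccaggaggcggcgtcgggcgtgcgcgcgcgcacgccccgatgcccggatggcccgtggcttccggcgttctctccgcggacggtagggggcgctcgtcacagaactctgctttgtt
Tob1, chr11:94211204-94211503, forward strand: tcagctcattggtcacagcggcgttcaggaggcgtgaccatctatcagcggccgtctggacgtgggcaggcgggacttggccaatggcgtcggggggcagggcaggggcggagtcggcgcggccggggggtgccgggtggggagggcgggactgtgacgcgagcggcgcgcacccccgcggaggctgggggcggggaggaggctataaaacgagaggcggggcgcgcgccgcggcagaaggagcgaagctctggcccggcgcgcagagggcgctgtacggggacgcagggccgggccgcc
Tigar, chr6:127109503-127109802, reverse strand: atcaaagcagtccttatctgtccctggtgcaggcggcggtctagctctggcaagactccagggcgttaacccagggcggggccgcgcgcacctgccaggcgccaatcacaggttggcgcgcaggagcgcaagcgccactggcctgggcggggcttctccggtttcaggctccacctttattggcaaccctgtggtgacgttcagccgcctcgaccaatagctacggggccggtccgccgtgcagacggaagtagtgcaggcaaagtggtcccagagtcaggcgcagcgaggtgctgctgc

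The Cdkn1a window holds a pair of half-sites, beginning at positions -73 and -51 relative to the start with 12 bases between them. The 10 bases directly after the second half-site fit the motif at all but their first base, so they are left in small letters. This window belongs to an upstream start, and the window of the downstream Cdkn1a start (chr17:29093519-29093818) holds no match. Ccng1 and Mdm2 each hold 1 exact half-site, at positions -185 and -186, and the windows of Tob1 and Tigar hold none. In Ccng1 the 10 bases directly before the half-site fit the motif at all but 1 base, and they too are left in small letters. The windows of Fas, Bbc3 and Ephx1, which also had negative differences (-0.65, -0.46 and -0.59), hold no exact match either and are not shown. A stretch of 10 bases in 1 Bbc3 window fits the motif at all but its first base. Near matches were neither searched for nor counted, so a window without an exact match is not shown to lack a p53 site. A search for this 10-base motif, which reads the same on both strands, found at least 1 match in 11 of the 31 members that have a window (35.5%), against 9.55% of 27025 genes with a window. A pair with at most 13 bases between its half-sites was found in 1 member and in 24 of 32851 windows in all. The 8 tested members with an exact half-site had a median difference of -0.26 (5 negative), and the 17 tested members without one had a median of 0.09 (8 negative). These medians were not tested against each other, and members with only near matches count among those without. A match describes the letters of the window and was not tested as a binding site.

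Across the 32 tested p53 targets, 2 passed the test at an adjusted p of 0.05. Tob1 fell (1.61% of all tested genes were lower) and Tigar rose (6.02% were higher), while the other 30 did not pass. That is 6.25% of the members, against 7.63% of all tested genes, so the share called was near the background. At an unadjusted p under 0.05 there were 11 members (34.4%, against 28.2% of all tested genes), of which 8 had lower and 3 had higher values in deficient cells. The background ran the other way, with 8.24% of tested genes lower and 19.9% higher at that level. The groups did not overlap in 6 members (18.8%, against 33.5% of all tested genes), namely Tigar, Sesn2 and Ercc6 with higher and Tob1, Ccng1 and Fas with lower values. Over all tested genes 23.7% had higher and 9.87% lower values without overlap. The members' differences ran from -0.91 to 1.11 with a median of -0.01, beside a median of 0.07 over all tested genes, and 17 were negative (53.1%, against 42.7% of all tested genes).

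**Figure D1:**
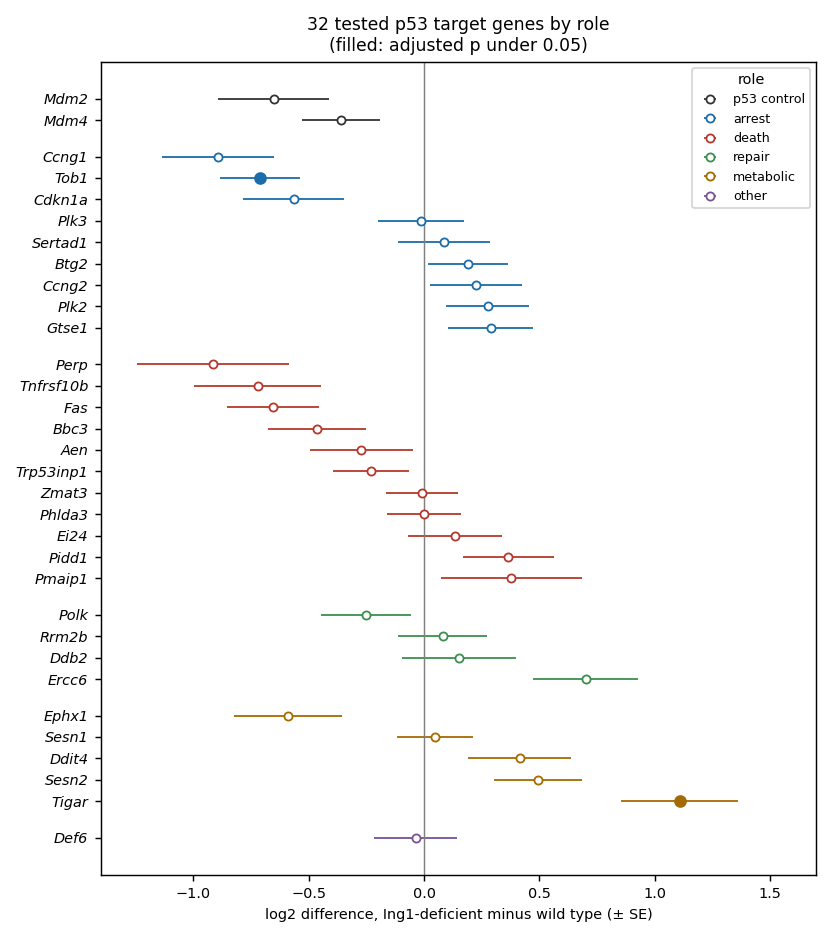
Log2 difference between Ing1-deficient and wild-type cells (x axis, ± SE from the fit, 3 arrays per genotype) for the 32 tested p53 target genes, grouped by role. Only Tob1 at -0.71 and Tigar at 1.11 are filled, and the death genes lie mostly left of 0 while 4 of the 5 metabolic genes lie right of it.

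The controllers of p53 both had negative differences. Mdm2, the ubiquitin ligase that is both target and inhibitor of p53, read 0.646, 0.0048 and 1.07 on deficient arrays C4, C3 and B1, against 1.24, 1.02 and 1.21 on H2, H3 and I2 of the wild type. Its C3 spot lacked a good flag and entered the fit at the floor of 0.57. The B1 value lay above that of H3, so the groups overlapped. Means were 0.575 ± 0.538 in deficient and 1.16 ± 0.123 in wild-type cells (SD, n = 3 each), and the log2 difference was -0.65 ± 0.24 (limma unadjusted p = 0.0229, adjusted p = 0.125). The size of that difference depended on the floor, since it was -0.07 with the floor doubled, -1.32 with the floor divided by 4 and -0.27 under normexp background correction, and it ran from -0.93 to -0.47 with single arrays left out. Mdm4, which blocks p53 as a partner of Mdm2, read 5.36, 5.85 and 6.41 in deficient cells, against 8.41, 6.29 and 8.05 in wild-type cells. Here only B1 reached into the wild-type range, above H3. Its difference was -0.36 ± 0.17 (limma adjusted p = 0.218), and a second probe gave -0.24 ± 0.15. Neither controller passed the test.

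Of the 10 arrest genes 9 were tested. Of these 1 fell (11.1% called, against 7.63% of all tested genes, 1.61% lower) and 8 did not pass. Their differences split 5 positive to 4 negative around a median of 0.09, a median that turned to -0.01 under cyclic loess, -0.03 under quantile normalization and -0.02 without array I2. Tob1, an antiproliferative protein of the BTG/TOB family, read 5.79, 5.69 and 5.01 on the deficient arrays, against 10.7, 7.59 and 8.96 on the wild-type arrays. All 3 deficient values lay below all 3 wild-type values. It fell 1.64-fold (means 5.50 ± 0.424 and 9.08 ± 1.55, SD, n = 3 each; log2 difference -0.71 ± 0.17, 95% interval -1.10 to -0.32, limma adjusted p = 0.0452). A dimmer second Tob1 probe also passed, at 0.844, 0.771 and 0.817 in deficient cells and 1.68, 1.74 and 1.29 in wild-type cells (log2 difference -0.94 ± 0.17, limma adjusted p = 0.0259). With the brighter probe, adjusted p was 0.0199 without H3 but 0.0868 to 0.161 without any other single array, where the difference ran from -0.75 to -0.59.

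Ccng1 encodes cyclin G1, a long-known p53 target that takes part in the feedback on p53. It read 19.2, 32.1 and 26.8 in deficient cells, against 58.7, 36.1 and 49.6 in wild-type cells. The groups did not overlap, although H3 at 36.1 came close to C3 at 32.1. Means were 26.0 ± 6.49 in deficient and 48.1 ± 11.3 in wild-type cells (SD, n = 3 each), a difference of -0.89 ± 0.24 (95% interval -1.44 to -0.35) that missed the threshold (limma unadjusted p = 0.00488, adjusted p = 0.0608). Cdkn1a encodes p21, the CDK inhibitor through which p53 holds cells in G1. It read 42.5, 58.4 and 49.1 in deficient cells, against 88.9, 54.1 and 82.1 in wild-type cells. H3 lay below C3, so the groups overlapped. Means were 49.99 ± 7.99 and 75.0 ± 18.5 (deficient and wild type, SD, n = 3 each), with a difference of -0.57 ± 0.22 (limma unadjusted p = 0.0301, adjusted p = 0.146). With H3, their lowest wild-type array, left out, both differences had to widen, to -1.09 for Ccng1 (adjusted p = 0.0238) and -0.79 for Cdkn1a (adjusted p = 0.0315, limma).

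The other 6 tested arrest genes lay between -0.01 and 0.29, and none reached an unadjusted p of 0.05. They were the antiproliferative gene Btg2 (0.19 ± 0.17), the atypical cyclin Ccng2 (0.22 ± 0.20), Gtse1, which restrains p53 in G2 (0.29 ± 0.19), the polo-like kinases Plk2 (0.28 ± 0.18) and Plk3 (-0.01 ± 0.19), and the transcriptional coregulator Sertad1 (0.09 ± 0.20). Btg2 belongs to the same family as Tob1 but had a positive difference, with means of 9.26 ± 0.865 in deficient and 8.18 ± 1.42 in wild-type cells (SD, n = 3 each) and an interval of -0.20 to 0.58. Whether the arrest genes differed from one another was not tested.

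**Figure D2:**
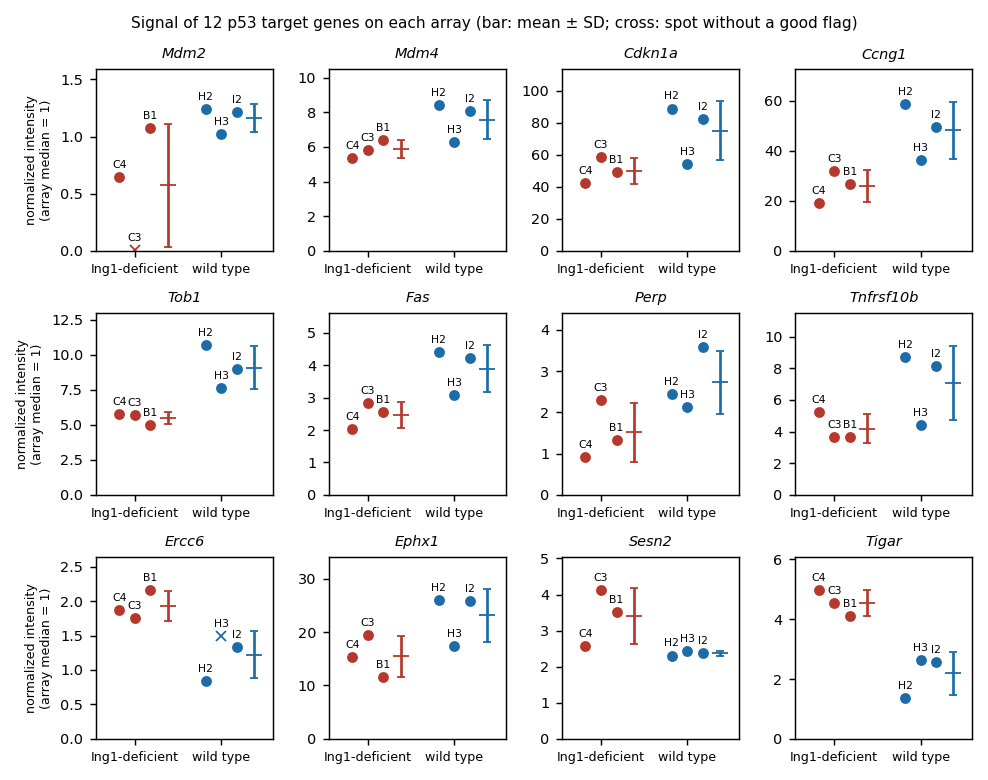
Normalized intensity (y axis, array median at 1) of 12 p53 target genes on each array, deficient cultures left and wild-type cultures right in each panel, with mean ± SD over 3 arrays and a cross for a spot without a good flag. Tob1, Tigar, Ccng1, Fas, Sesn2 and Ercc6 separate the genotypes fully. H3 is the lowest wild-type array for Mdm2, Mdm4, Cdkn1a, Ccng1, Tob1, Fas, Perp, Tnfrsf10b and Ephx1.

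Among the 13 death genes 11 were tested, and none passed. Of the 11 differences 8 were negative (72.7%, against 42.7% of all tested genes), with a median of -0.23. An unadjusted p under 0.05 was reached by 3, all negative (27.3%). Of all tested genes 28.2% reached it, 8.24% lower and 19.9% higher, so the share in either direction was near the background. Fas, a death receptor of the cell surface, read 2.02, 2.82 and 2.56 in deficient cells, against 4.41, 3.07 and 4.22 in wild-type cells. It was the only tested death gene whose groups did not overlap (9.09%, against 33.5% of all tested genes). Means were 2.47 ± 0.410 in deficient and 3.90 ± 0.724 in wild-type cells (SD, n = 3 each), a difference of -0.65 ± 0.20 (95% interval -1.11 to -0.20, limma unadjusted p = 0.00950, adjusted p = 0.0815).

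Tnfrsf10b, the mouse receptor for the death ligand TRAIL, read 5.24, 3.63 and 3.65 in deficient cells, against 8.70, 4.39 and 8.14 in wild-type cells. H3 fell inside the deficient range. The difference was -0.72 ± 0.28 (limma unadjusted p = 0.0277, adjusted p = 0.139). Perp, a membrane protein of desmosomes that p53 induces during cell death, read 0.911, 2.30 and 1.33 in deficient cells, against 2.45, 2.13 and 3.59 in wild-type cells. C3 lay above H3, so these groups overlapped too. The Perp difference of -0.91 ± 0.33 (95% interval -1.65 to -0.17, limma unadjusted p = 0.0208, adjusted p = 0.119) was the most negative among the members and had the widest standard error. Dsp, another desmosomal gene among the epithelial markers, fell as well (1.44, 1.61 and 1.53 in deficient cells, against 2.97, 3.06 and 3.69 in wild-type cells, log2 difference -1.08 ± 0.16, limma adjusted p = 0.0177), and its part in the Perp value was not tested. Without H3, Fas (-0.82, adjusted p = 0.0295) and Tnfrsf10b (-1.03, adjusted p = 0.0181) passed in limma and Perp did not (adjusted p = 0.0882), H3 being the lowest wild-type array for each. Under normexp the difference was -0.39 for Fas and -0.41 for Perp, and for Perp it was -0.60 without C4.

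The BH3-only genes, whose proteins set off the mitochondrial death pathway, had differences of opposite sign. Bbc3, which encodes Puma, read 3.02, 2.91 and 3.59 in deficient cells, against 5.64, 3.29 and 4.47 in wild-type cells, a difference of -0.46 ± 0.21 (limma unadjusted p = 0.0567). Pmaip1, which encodes Noxa, read 8.46, 10.8 and 13.5 in deficient cells, against 9.19, 5.15 and 11.96 in wild-type cells, a difference of 0.38 ± 0.30. Neither passed, the groups overlapped in both, and the difference between the 2 genes was not tested. Noxa had a wide spread, with its wild-type values 5.15 on H3 and 11.96 on I2.

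The other tested death genes had smaller differences. The nuclease gene Aen (-0.27 ± 0.22, and -0.16 ± 0.19 on a second probe) and the autophagy and death gene Trp53inp1 (-0.23 ± 0.16) were negative. Zmat3, which encodes a zinc-finger RNA-binding protein, averaged 55.6 ± 4.76 in deficient and 56.02 ± 5.90 in wild-type cells (SD, n = 3 each), with a difference of -0.01 and an interval of -0.36 to 0.35. Phlda3, an inhibitor of Akt, averaged 35.2 ± 2.06 and 35.3 ± 4.53 (deficient and wild type), with an interval of -0.36 to 0.36. These intervals leave room for a difference of about the size seen for Mdm4. Ei24, an endoplasmic reticulum protein, stood at 0.13 ± 0.20. Pidd1, the death-domain protein of the PIDDosome, had probes of opposite sign: 0.37 ± 0.20 (limma unadjusted p = 0.0966) on the brighter and -0.41 ± 0.18 (limma unadjusted p = 0.0495) on the dimmer, so no direction is given for it. Apaf1, the scaffold of the apoptosome, had a good spot on array I2 alone and was not tested.

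Of the 5 repair genes 4 were tested, with a median difference of 0.12, and none passed. Ercc6, the chromatin remodeller of transcription-coupled repair that is altered in human Cockayne syndrome, read 1.87, 1.75 and 2.17 in deficient cells, against 0.836, 1.49 and 1.33 in wild-type cells. All deficient values lay above all wild-type values, though the H3 spot lacked a good flag. The difference was 0.70 ± 0.23 (95% interval 0.19 to 1.21, limma unadjusted p = 0.0128, adjusted p = 0.0943), which ran from 0.45 without H2 (adjusted p = 0.230) to 0.87 without H3, the highest wild-type array here (adjusted p = 0.0417), and was 0.24 under normexp. Ddb2, which recognises ultraviolet damage, stood at 0.15 ± 0.25, the ribonucleotide reductase subunit gene Rrm2b at 0.08 ± 0.19 and the translesion polymerase gene Polk at -0.25 ± 0.19, all with overlapping groups. Xpc, the damage sensor of global repair, was masked on all 6 arrays.

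Of the 6 metabolic and redox genes 5 were tested. Of these 1 rose (20% called, against 7.63% of all tested genes, 6.02% higher) and 4 did not pass. Tigar, a phosphatase that slows glycolysis and feeds the pentose phosphate pathway, read 4.97, 4.53 and 4.12 in deficient cells, against 1.37, 2.62 and 2.58 in wild-type cells. All 3 deficient values lay above all 3 wild-type values. Tigar rose 2.16-fold (means 4.54 ± 0.426 and 2.19 ± 0.714, SD, n = 3 each; log2 difference 1.11 ± 0.25, 95% interval 0.54 to 1.68, limma adjusted p = 0.0389). It was the only p53 target past the selection rule that the labels state, a ratio above 2 or below 0.5 with an unadjusted p under 0.05 in the methods' t-test, which 3.57% of all tested genes met. Its adjusted p was 0.0212 without H3 and 0.0811 to 0.120 without any other single array, where the difference ran from 0.80 to 1.26. Under normexp it was 0.56 (adjusted p = 0.0619).

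Sesn2, a sestrin that restrains mTORC1 and limits peroxides, read 2.58, 4.12 and 3.50 in deficient cells, against 2.31, 2.44 and 2.37 in wild-type cells. The groups did not overlap, but C4 lay close to the wild-type arrays, which were tightly grouped. The difference was 0.49 ± 0.19 (95% interval 0.06 to 0.92, limma unadjusted p = 0.0297, adjusted p = 0.144), and 0.24 under normexp. Its relative Sesn1 stood at 0.05 ± 0.17 (interval -0.33 to 0.42). Ddit4, another inhibitor of mTORC1 that also answers to hypoxia and glucocorticoids, stood at 0.41 ± 0.22 (limma unadjusted p = 0.0949).

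Ephx1, the microsomal epoxide hydrolase of detoxification, was the only tested metabolic gene with a negative difference. It read 15.3, 19.4 and 11.6 in deficient cells, against 26.0, 17.5 and 25.9 in wild-type cells. Once more H3 lay inside the deficient range. The difference was -0.59 ± 0.23 (limma unadjusted p = 0.0329, adjusted p = 0.152). Of the 2 remaining members, Def6, a guanine nucleotide exchange factor gene of lymphocytes, stood at -0.04 ± 0.18, and the drug transporter gene Abcb1a had no good spot on any array.

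The roles were set side by side by their medians, which are descriptions and were not tested against one another. The median difference was -0.51 for Mdm2 and Mdm4, -0.23 for 11 death genes, 0.09 for 9 arrest genes, 0.12 for 4 repair genes and 0.41 for 5 metabolic genes. Over all alternative settings the death median stayed negative, between -0.33 and -0.09, and the metabolic median stayed positive, between 0.24 and 0.64. The median of Mdm2 and Mdm4 ran from -0.84 with the floor divided by 4 to -0.22 with the floor doubled, and the repair median from 0.0053 without H2 to 0.27 without H3 (0.025 with the floor doubled). On single arrays the death genes' median deviation from their own 6-array means was -0.16, 0.08 and -0.05 on C4, C3 and B1, against 0.32, -0.17 and 0.27 on H2, H3 and I2. The death value of H3 was the lowest of all 6 arrays, and H3 was the lowest wild-type array for 10 of the 11 death genes. For the metabolic genes the deviations were -0.13, 0.55 and 0.31 on C4, C3 and B1, against -0.29, -0.10 and -0.25 on H2, H3 and I2. Here it was the deficient array C4 that came within the wild-type range.

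**Figure D3:**
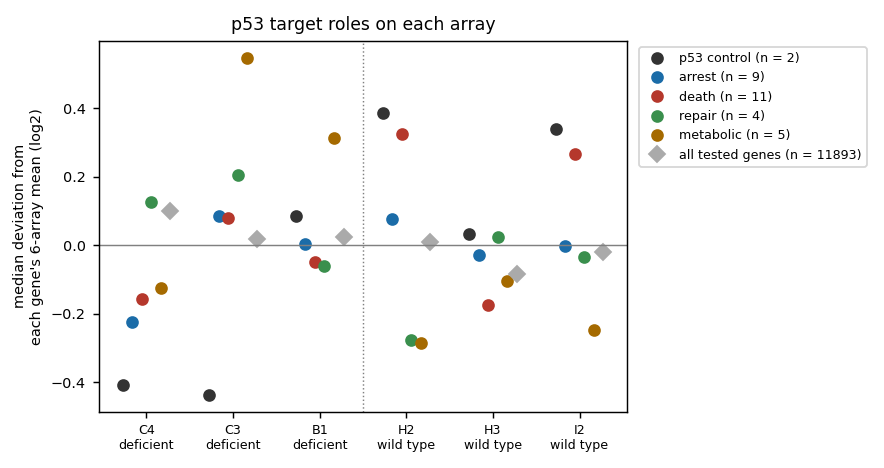
Median deviation of each role's genes from their own 6-array mean (y axis, log2) on each array (x axis, deficient cultures left of the dotted line, wild-type cultures right), with all tested genes as grey diamonds. Metabolic genes stand high on C3 and B1, and death genes stand high on H2 and I2 but not on H3, at -0.17.

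Leaving out arrays in turn moved calls more than directions. Without H3, 7 of the 32 p53 targets passed (Cdkn1a, Ccng1, Tob1, Fas, Tnfrsf10b, Ercc6 and Tigar), beside 13.9% of all tested probes. Without any other single array none passed in limma, beside 0.0255% to 1.94% of all tested probes. These background shares count probes, whereas the members are counted as genes. None of the 12 genes plotted array by array changed sign when an array was left out. That was fixed in advance for Tob1, Ccng1, Fas, Tigar, Sesn2 and Ercc6, whose groups do not overlap. All 12 but Mdm4 were also picked by p or size in these arrays, so the kept signs are no independent support. For Ccng1 the difference ran from -1.09 to -0.69, for Cdkn1a from -0.79 to -0.43, and for Fas from -0.82 to -0.52.

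**Figure D4:**
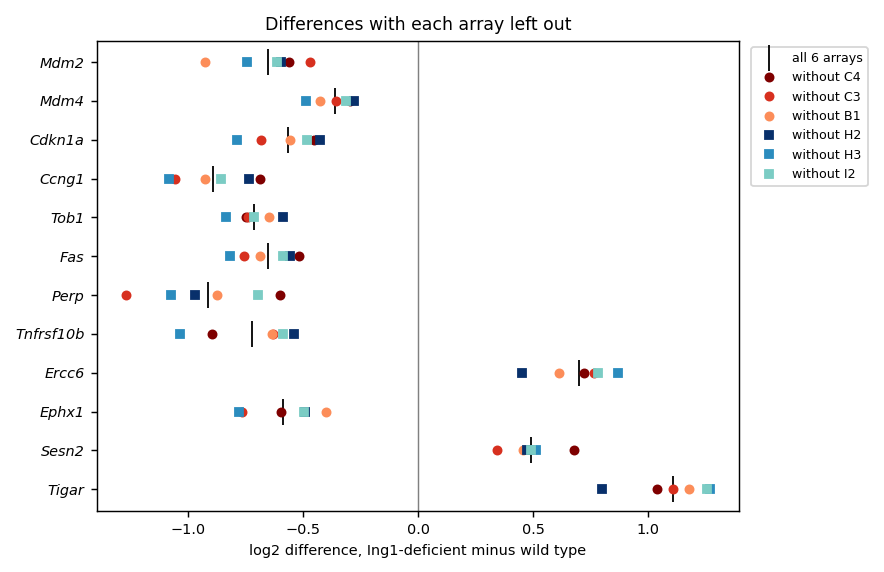
Log2 difference, deficient minus wild type (x axis), of 12 p53 target genes with all 6 arrays (black tick) and with each array left out (points for deficient arrays, squares for wild-type arrays). Every point stays on its side of 0, and for each of the 12 genes the value without H3 lies farther from 0 than that with all arrays.

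Other genes of the pathway were read from 2 further lists, neither of which overlaps the members. Of 29 listed p53 regulators and cofactors 19 were tested, with a median difference of 0.19. An unadjusted p under 0.05 was reached by 5, all higher (26.3%). Of all tested genes 28.2% reached it, 19.9% higher and 8.24% lower, so the share in either direction was near the background. After adjustment 2 were higher and none lower (10.5% called, against 7.63% of all tested genes). Both genes that rose encode kinases that phosphorylate p53 in its death response. Hipk2 read 9.92, 8.71 and 8.58 in deficient cells, against 2.74, 6.04 and 3.45 in wild-type cells (log2 difference 1.23 ± 0.27, limma adjusted p = 0.0350), while its other tested probes gave 0.45 and 0.27. Dyrk2 read 3.55, 3.71 and 3.79, against 2.14, 2.56 and 2.28 in wild-type cells (log2 difference 0.67 ± 0.15, limma adjusted p = 0.0368). Trp73, Ep300 and Usp7 had no good spot on any array. Of 33 other listed p53 targets 24 were tested, with a median of 0.05. An unadjusted p under 0.05 was reached by 9 (37.5%, against 28.2% of all tested genes), 5 higher and 4 lower. After adjustment 1 was higher and none lower (4.17% called, against 7.63% of all tested genes). That gene was Igfbp3, a binding protein of insulin-like growth factors, at 26.2, 40.0 and 30.8 in deficient cells and 8.69, 19.9 and 9.77 in wild-type cells (2.67-fold higher, log2 difference 1.42 ± 0.31, limma adjusted p = 0.0351).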

How the data were processed

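Each of 6 biotin-labelled total RNA samples was hybridised to 1 CodeLink array. Slides were read with a GenePix scanner, and CodeLink Expression Analysis 4.1.0.29054 gave the spot values, per the labels and file headers. As worked out from the values, the authors made each deposited normalized intensity by subtracting the local background from the spot mean and dividing by the array's median. The deposited scanner tables write it with decimal commas, and the value table holds the same intensity (217362 of 217362 values equal). The genome build is not given in the sources used here.

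Intensities under 0.57 (the median over arrays of the 1st percentile among good-flag probes) were set to 0.57, which understates differences of dim probes, and log2 was taken. Masked spots were missing. Probes whose flag was good on every array of at least 1 genotype (19575) were tested two-sided with limma 3.58.1 in R 4.3.3, without covariates, checked on simulated data, with Benjamini-Hochberg adjustment over all of them. Where a gene had several tested probes, the one of highest mean stood for it. Among 34967 probes the platform annotation gave 1 symbol for 21615, several for 681 and none for 12671. Current names for 21487 probes came through their gene ID from the RefSeq table of GRCm38.p6. Given on each array were Mdm2, Mdm4, Cdkn1a and members with an unadjusted p under 0.05 or a log2 difference beyond 0.5 in size. Bbc3, Pmaip1 and the marker genes Dsp and Esam were added after their values were seen. The members, role groups and further lists were chosen with earlier results of these data known. Each culture came from its own embryo, and the number of arrays limits the precision.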

Additional observations from a re-analysis of the deposited data

How the results depend on the processing

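Alternatives changed how many of the 32 tested p53 targets passed. Of 238 alternative values for the 12 genes plotted array by array, 191 kept their side of the threshold, 26 newly passed, 21 no longer passed and none reversed in sign. The new passes include those under the letter block and the unadjusted t-test. Flag filters, a variance trend, the value table and the methods' t-test leave the differences as they were, so no sign could turn there. All 12 genes but Mdm4 were picked by p or size in these data, which favours a kept sign. With all settings as described, 2 p53 targets and 1286 probes passed. The counts were 1 and 575 under normexp background correction, 1 and 737 under quantile normalization, 1 and 749 under cyclic loess (Tob1 each time), 0 and 499 with the floor divided by 4, 0 and 191 with the floor doubled, and 0 and 20 with no filter on flags. Array weights gave 11 and 4720, and the leading letter as a random block gave 20 and 12901 with a negative consensus correlation of -0.89. The methods' t-test gave 4 and 3927 unadjusted (Ccng1, Tob1, Fas and Tigar), and 0 and 7 after adjustment. Leaving out 1 array gave 0 to 7 p53 targets and 5 to 2726 probes, the highest without H3. The members' median of -0.01 reversed to 0.0095 with array weights and to 0.013 with the letter block. The share of called probes that were higher was 75.2% and moved by over 10 percentage points, always downward, in 5 settings: 60.7% under quantile normalization, 61.0% with array weights, 55.7% with the letter block, 64.4% without H3 and 57.1% under the adjusted methods' t-test. The other settings gave 65.7% (cyclic loess) to 83.2% (floor doubled). The causes were not tested. By adjusted p, and leaving out the letter block, Tob1 passed under 9 of 18 alternatives (0.00534 to 0.202) and Tigar under 6 of 18 (0.0137 to 0.266). These passes include the fit to the value table, which holds the same intensities and so repeats the main result. For Tigar they also include the mean over a gene's tested probes, which leaves a gene with a single probe as it was.

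No paired analysis was run, since the replicate names do not pair a deficient with a wild-type culture. The slide as a block was not run, since each slide held 1 array. Precision is set by the 3 arrays of each genotype, and Mdm2, Ddb2, Perp and Ercc6 had values close to the floor of 0.57, which replaced 1 value of Mdm2.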
